A study of Mus musculus with 14 samples.

Results

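The regions described here are 200-bp bins of the mouse genome that carried more 5-methylcytosine (5mC) when their DNA was pulled down with the H3K4me1 antibody than with the H3K27ac antibody, in embryonic stem cells differentiated with retinoic acid. They were chosen by 3 criteria: the bin overlapped a peak of both marks in the differentiated cells, it had at least 60 CpG counts in both libraries, and its 5mC was more than 20 percentage points higher in the H3K4me1 library. Of 24339 bins with the required counts, 24238 overlapped peaks of both marks and are called the well-covered bins. Among them 719 met the limit of 20 points, which is 2.97%, and these 719 are called the members. In the other direction, 25 well-covered bins had 5mC more than 20 points higher on H3K27ac, and 23494 lay within 20 points. The 5mC of the differentiated cells selected the members, so their difference between the marks in those cells is given as a description and was not tested.

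Bisulfite sequencing after chromatin immunoprecipitation (ChIP-BS-seq) reads the methylation of the DNA wrapped in nucleosomes that carry a given histone mark. Nucleosomes at enhancers carry H3K4me1 before and after the enhancer is switched on, and gain acetylation at H3K27 once it is in use, as promoters do. Active enhancers have low or intermediate 5mC, and the premise of the assay is that a bin with the same state in all cells and alleles reads the same 5mC with either antibody. Methylation at CpGs is laid down during exit from pluripotency by the de novo DNA methyltransferases, and 2i, a pair of kinase inhibitors used to hold mouse embryonic stem cells (ESCs) in a naive state, lowers it genome-wide.

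The cells were R1, a mouse ESC line grown in serum with LIF and 2i. ESCs were sampled after 2 days without 2i, the differentiated cells after 4 days with 1 µM retinoic acid in medium without LIF, and XEN (extraembryonic endoderm) cells after 9 days with 0.1 µM retinoic acid and activin A. All groups came from this 1 line, and the retinoic acid protocol is described by the study as giving a mixture of cell states. For ESCs and differentiated cells 1 library per mark was analysed, and the sources do not say whether it pools repeats of the experiment, so these values have no replicate error. XEN cells had 2 libraries per mark. The 8 libraries held between 12147115 and 58803653 CpG counts. Intervals given in brackets are exact 95% binomial (Clopper-Pearson) intervals of methylated over all CpG counts. They cover counting error only, since CpGs on 1 read and PCR copies are not independent.

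The XEN libraries went against their labels. Across the 462957 bins with at least 30 counts in a library of differentiated cells, the counts of the 2 XEN libraries labelled H3K4me1 had a Spearman correlation of 0.663 and 0.682 with the H3K27ac counts of differentiated cells, and of 0.0662 and 0.0545 with their H3K4me1 counts. The counts of the 2 libraries labelled H3K27ac had correlations of 0.172 and 0.136 with H3K27ac and of 0.598 and 0.645 with H3K4me1. The deposited file names likewise swap the 2 marks relative to the sample labels. Each XEN library is called here by its label, and the median difference and the counts of calls are also given with the marks as the file names have them. For every other XEN value, taking the file names instead exchanges the 2 marks.

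The members were scattered through the genome. They formed 693 runs of touching bins, of which 673 were a single bin, 14 were 2 bins and 6 were 3 bins long. They lay in 649 H3K27ac peaks and 649 H3K4me1 peaks of the differentiated cells, and 49 H3K27ac peaks held 2 or more members. Every autosome held members, between 21 on chromosome 18 and 56 on chromosome 10. On chromosome 10 this was 4.08% of the well-covered bins (3.10 to 5.26), on chromosome 14 it was 4.40% (3.21 to 5.86) and on chromosome 6 it was 1.96% (1.29 to 2.83), beside 2.96% (2.75 to 3.18) over all autosomes. Chromosome X held 6 members among 142 well-covered bins.

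Most members sat just above the limit. The difference between the marks ranged from 20.0 to 63.0 points, with a median of 22.8 and quartiles of 21.1 and 25.8, and 64 members exceeded 30 points and 1 exceeded 40. The 2 members nearest the limit had differences of 20.01 points at chr2:59509201-59509400 (47.01% on H3K4me1) and 20.01 points at chr14:120682601-120682800 (31.78% and 11.76%). The 2 well-covered bins just below it had differences of 19.98 points at chr11:102976001-102976200 (35.71% and 15.73%) and 19.98 points at chr5:25177601-25177800 (52.99% and 33.01%). The limit of 20 points therefore cut a continuous distribution and did not separate 2 groups of bins, as the plot of the 2 marks shows. Over all well-covered bins the median difference was 3.54 points, with quartiles of -0.268 and 8.81.

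**Figure D1:**
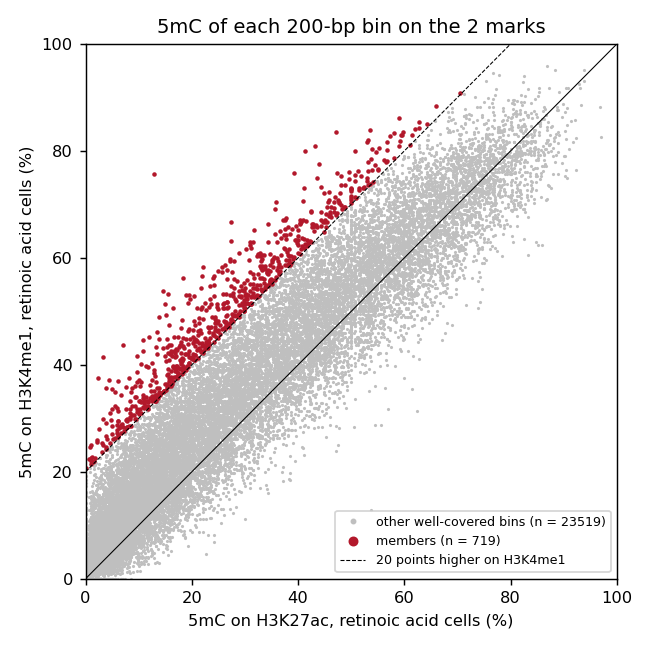
Percentage of 5mC of each well-covered 200-bp bin in differentiated cells, on H3K27ac (x axis) and on H3K4me1 (y axis), with the 719 members in red, the other bins in grey, the line of equality (solid) and the limit of 20 points (dashed). The members fill a band just above the dashed line from 0% to 70.5% on H3K27ac, and 1 bin stands apart, with 12.8% on H3K27ac and 75.7% on H3K4me1.

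In the differentiated cells the members had a median of 92 CpG counts in the H3K4me1 library and 80 in the H3K27ac library. Their median 5mC was 49.5% on H3K4me1 (quartiles 39.4 and 60.6) and 25.0% on H3K27ac (quartiles 15.7 and 36.3). Among all well-covered bins the medians were 27.6% on H3K4me1 and 20.9% on H3K27ac. Beside all well-covered bins, the members' medians thus differed more on H3K4me1 than on H3K27ac. The rule sets the gap between the marks, which a high H3K4me1 or a low H3K27ac level can meet. The H3K27ac median of members was 22.7% with ESC peaks of both marks, beside 15.7% in all well-covered bins of that kind. With an ESC peak of H3K4me1 alone it was 26.2% beside 32.4%, and with one of H3K27ac alone 30.9% beside 29.2%. With no ESC peak it was 32.8% beside 44.4%. By their 5mC on H3K27ac, 268 members were under 20%, 311 were between 20% and 40%, and 140 were at 40% or over.

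The 4 members with the largest difference among the 41 with at least 100 counts in both libraries of differentiated cells and at least 30 in both ESC libraries were read in all 8 libraries. At chr16:64873401-64873600, 5mC in differentiated cells was 75.7% on H3K4me1 (66.3 to 83.6, 103 counts) and 12.8% on H3K27ac (9.14 to 17.2, 290 counts). In ESCs the same bin had 40.3% on H3K4me1 (77 counts) and 31.2% on H3K27ac (199 counts), with overlapping intervals, so H3K4me1 rose by 35.5 points and H3K27ac fell by 18.4 points. In the XEN libraries it had 30.8% and 23.3% in those labelled H3K4me1 and 73.7% and 78.9% in those labelled H3K27ac, the last 2 from 19 and 38 counts. In XEN cells the libraries labelled H3K27ac were thus the high pair, without overlap, in a bin too thinly covered for the XEN test.

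At chr8:48327801-48328000 the differentiated cells had 53.2% on H3K4me1 (44.1 to 62.2) and 15.6% on H3K27ac (9.81 to 23.1). The ESC libraries had 20.0% and 18.6%, so the 2 marks started level and only H3K4me1 moved by more than its interval. At chr11:3093001-3093200 the differentiated cells had 48.9% (45.0 to 52.8) and 13.9% (11.8 to 16.3), and the ESCs 27.3% and 15.4%. At chr15:102155801-102156000 the differentiated cells had 44.6% (35.6 to 53.9) and 10.8% (6.01 to 17.4), and the ESCs 8.77% and 3.85%. In these 3 bins H3K27ac moved by -3.02, -1.51 and 6.92 points since ESC, while H3K4me1 rose by 33.2, 21.5 and 35.9 points.

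Bins next to a member leaned the same way by less. A touching bin can share reads with the member, so it is given apart from those further away. Of the members, 543 had a touching bin with at least 30 counts in both libraries, and over these 755 neighbours the median difference was 9.22 points (quartiles 3.06 and 16.2), beside 3.59 points over the touching neighbours of all well-covered bins. H3K4me1 was higher in 85.7% of the members' touching neighbours and in 70.4% of those of all well-covered bins. The difference exceeded 20 points in 106 of them, which is 14.0%, beside 4.22% for the touching neighbours of all well-covered bins. Of the 106 neighbours past 20 points, 52 met the full rule and were members themselves. These 52 passed by the values that chose them, which raises the 14.0%. With members left out, the median over touching neighbours was 8.11 points.

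The lean shrank with distance and was still seen in bins that did not touch the member. At 2 to 3 bins from a member the median was 6.95 points over 1083 neighbours, beside 3.70 for all well-covered bins, and at 4 to 10 bins it was 4.99 points over 1733 neighbours, beside 3.19. The share of neighbours past 20 points was 8.68% at 2 to 3 bins and 7.33% at 4 to 10 bins, beside 4.58% and 4.05%. Differences of more than 20 points the other way were found in 0.132%, 0.369% and 0.692% of the members' neighbours when touching, at 2 to 3 and at 4 to 10 bins, beside 0.303%, 0.453% and 0.473% for all well-covered bins, so at 4 to 10 bins this share was above that of all well-covered bins too. Members and neighbours were read in the same 2 libraries, so these shares are a description. With members left out, the median at 2 to 10 bins was 5.43 points, from 5.69.

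**Figure D2:**
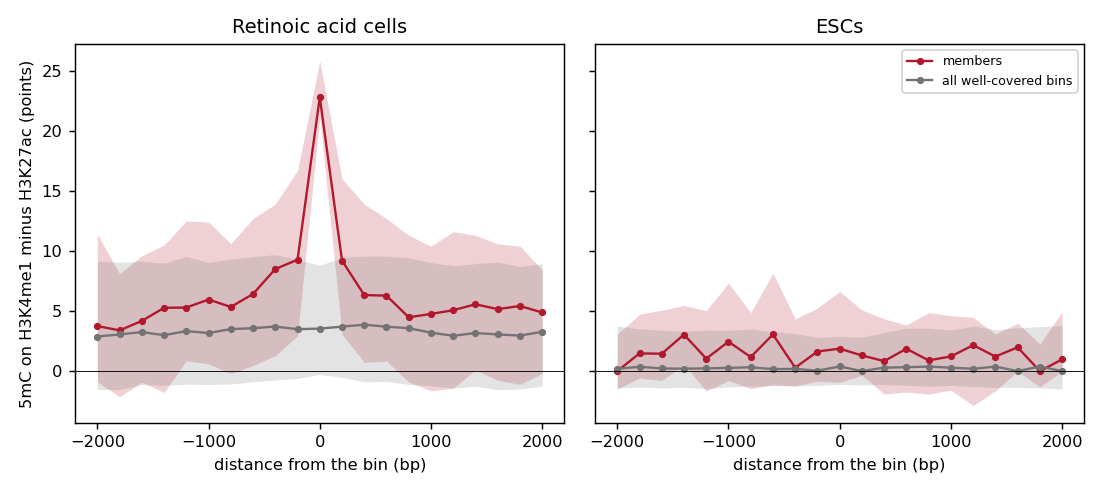
Difference in 5mC, H3K4me1 minus H3K27ac in percentage points, of bins up to 2000 bp to either side of a member (red) or of any well-covered bin (grey), in differentiated cells (left) and ESCs (right), for bins with at least 30 counts in both libraries. Lines are medians and bands are quartiles. In differentiated cells the members' line falls from 22.8 points at the member, where the rule fixes it, to 9.27 and 9.20 in the touching bins and stays above the grey line out to 2000 bp, while in ESCs it lies between 0 and 3.05 points.

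The 3 runs with the most bins and counts show how this looks in a single place. On chromosome 8 the touching bins from 25549001 to 25549600 had 52.4%, 64.5% and 42.1% on H3K4me1 in differentiated cells and 30.3%, 35.6% and 20.3% on H3K27ac. In ESCs the same 3 bins had 12.3%, 4.13% and 3.03% on H3K4me1, from 73, 121 and 66 counts. The middle bin gained 60.4 points on H3K4me1 and 32.5 points on H3K27ac, so both marks rose and H3K4me1 rose further.

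On chromosome 1 the touching bins from 171762001 to 171762600 had 40.2%, 51.3% and 74.8% on H3K4me1 in differentiated cells and 17.9%, 23.7% and 49.6% on H3K27ac. In ESCs they overlapped no peak of either mark, and the libraries held 6, 18 and 9 counts on H3K4me1 and 0, 3 and 6 on H3K27ac. The counts that were there were 66.7% to 100% methylated. In differentiated cells both marks were present. On H3K4me1 the first bin had 40.2% (29.9 to 51.3) there, beside 100% (54.1 to 100) of 6 counts in ESCs. The second had 51.3% (41.9 to 60.6) beside 66.7% (41.0 to 86.7) of 18 counts. The third had 74.8% (65.2 to 82.8) beside 66.7% (29.9 to 92.5) of 9 counts. The intervals of the second and of the third bin overlapped.

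On chromosome 11 the touching bins from 3092801 to 3093400 had 33.3%, 48.9% and 35.7% on H3K4me1 in differentiated cells and 11.7%, 13.9% and 8.68% on H3K27ac. Together with bins that begin at 3093601 and 3093801, the 5 members of this place lay in an H3K27ac peak of 83411 bp that starts near the first listed bin of the chromosome. Their counts in the H3K27ac library of differentiated cells ran from 120 to 949, where no other member exceeded 498, and in an XEN library from 91 to 1459, where no other member exceeded 282. Pooled XEN levels and counts of calls are given with and without these 5 bins. Whether reads from several copies of a sequence were placed there was not tested.

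Which 5mC the members had before differentiation was read from the ESC libraries, whose values the rule did not use. In ESCs the members had a median of 55 CpG counts on H3K4me1 and 15 on H3K27ac, and 495 members reached 30 counts on H3K4me1 and 231 on H3K27ac. The median 5mC was 22.0% on H3K4me1 (quartiles 9.27 and 37.1) and 5.94% on H3K27ac (quartiles 2.29 and 16.7), over these different sets of bins. The well-covered bins as a whole had 9.59% and 2.33%. The members were thus above the well-covered bins as a whole on both marks already in ESCs. They were lower on H3K27ac than on H3K4me1 there as well as after differentiation, although the bins behind the 2 medians are not the same. The rule leaves out bins at 20% or less on H3K4me1 in differentiated cells. Of all well-covered bins 39.5% were under 20% there, so the 2 sets were not matched in 5mC. Over the 222 members with enough counts in both libraries the ESC medians were 11.6% and 6.24%.

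Within single bins the 2 marks were close in ESCs. This comparison is over the same 222 members. The difference in ESCs had a median of 1.87 points (quartiles -0.939 and 6.63), against 22.6 points in differentiated cells over the same bins. The rule requires more than 20 points in differentiated cells and did not use the ESC values, so these 2 medians do not measure a change. Over all 24238 well-covered bins the median in differentiated cells was 3.54 points. H3K4me1 was higher in 144 of these members and H3K27ac in 73, beside 5723 and 4132 of the 10775 well-covered bins with these counts. In 3 members the ESC difference exceeded 20 points with H3K4me1 higher and in 2 with H3K27ac higher. Over these well-covered bins the median was 0.384 points, and it was 0.427 over all 96095 bins tested. The ESC difference of the other members among these 222 lay within 20 points, and the members with fewer counts could not be read this way.

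Fisher's exact test, adjusted by Benjamini-Hochberg over all 96095 bins, called 3 of the 222 members with H3K4me1 higher in ESCs, which is 1.35%, beside 0.0853% of all bins tested. It called 0 members with H3K27ac higher, beside 0.0146% of all bins, and 2 of the 222 members had an unadjusted p under 0.05 in that direction and 24 in the other, beside 1625 and 3564 of the 96095 bins. The test compares 2 libraries and not the marks over repeats. The 3 members, named after their values were seen, were chr11:3093001-3093200 (27.3% on H3K4me1 and 15.4% on H3K27ac, Fisher's exact test adjusted p = 0.00433), chr5:124022601-124022800 (17.9% and 1.42%, adjusted p = 0.0119) and chr7:104548601-104548800 (7.65% and 0.711%, adjusted p = 0.0163). All 3 had at least 95 counts in both ESC libraries. Without the 5 bins of the chromosome 11 region 2 members were called.

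Named by rule, the members with the largest ESC difference among the deeper ones were chr3:145654201-145654400, with 24.8% on H3K4me1 (210 counts) and 11.1% on H3K27ac (36 counts), chr1:24685001-24685200, with 13.3% (128 counts) and 1.32% (76 counts), and the chromosome 11 bin at 3093001. Their ESC differences were 13.7, 12.0 and 11.9 points. Of these only the chromosome 11 bin passed the test (adjusted p by Fisher's exact test 1.00, 0.436 and 0.00433). The members with the lowest ESC difference were chr8:110718801-110719000, with 21.7% on H3K4me1 (60 counts) and 43.3% on H3K27ac (30 counts), chr14:28043201-28043400, with 49.2% and 59.3%, and chr12:112576401-112576600, with 33.6% and 41.9%. Their H3K4me1 minus H3K27ac differences were -21.7, -10.1 and -8.35 points in ESCs, none past the test, and 23.5, 26.1 and 20.9 points in differentiated cells.

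In the members that could be read in ESCs, 5mC was mostly higher after differentiation on both marks, and by more on H3K4me1. Over the 495 members with enough ESC counts, H3K4me1 changed by a median of 26.4 points (quartiles 14.9 and 36.8), 443 members rose and 52 fell. Over the 231 members with enough ESC counts on H3K27ac, the median change was 11.5 points (quartiles 2.88 and 19.4), 193 rose and 37 fell. Over all well-covered bins the medians were 7.72 points on H3K4me1 and 5.64 points on H3K27ac. The share that rose by more than 20 points was 65.7% of members and 24.9% of all on H3K4me1, and 23.4% of members and 20.3% of all on H3K27ac. The members with few ESC counts on H3K27ac differed from these. In the 158 with an ESC peak of H3K4me1 alone, pooled H3K27ac 5mC in ESCs was 43.0% and the median in differentiated cells was 26.2%, and in the 126 with no ESC peak these were 63.4% and 32.8%, beside 38.9% and 32.4%, and 64.8% and 44.4%, in the well-covered bins of the same 2 kinds. A pooled level and a median of bins are set side by side here, since few ESC counts fell on each bin. Since the rule used the values of differentiated cells, these changes, and the words rose and fell for them, describe the direction of the values with no test.

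The 222 members with counts in both ESC libraries fell into 4 patterns. In 134 of them H3K4me1 rose by more than 20 points while H3K27ac moved by 20 points or less. In 53 both marks rose by more than 20 points. In 31 H3K4me1 moved by 20 points or less with no fall of that size on H3K27ac, and in 4 H3K27ac fell by more than 20 points. By their starting level, 160 were under 20% 5mC on both marks in ESCs, 34 were at 20% or more on both, 21 were under 20% on H3K27ac alone and 7 on H3K4me1 alone. Over the 10775 well-covered bins with these counts, 9.52% gained more than 20 points on H3K4me1 with H3K27ac within 20, beside 60.4% of these members, and 18.6% gained on both, beside 23.9%. A start under 20% on both marks was found in 85.5% of them and in 72.1% of these members. Of the 495 members read on H3K4me1 alone, 46.5% started under 20%, so the 222 with both marks lean to low starting levels.

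The 3 largest gains on H3K4me1 among the deeper members were 60.4 points in the chromosome 8 bin at 25549201, 56.7 points at chr3:65460601-65460800 and 51.5 points at chr10:110827201-110827400. The chromosome 3 bin gained 38.2 points on H3K27ac and went from 7.46% to 64.1% on H3K4me1. The chromosome 10 bin went from 14.5% to 66.0% and from 16.4% to 39.6%. All 3 belonged to the members in which both marks gained more than 20 points.

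**Figure D3:**
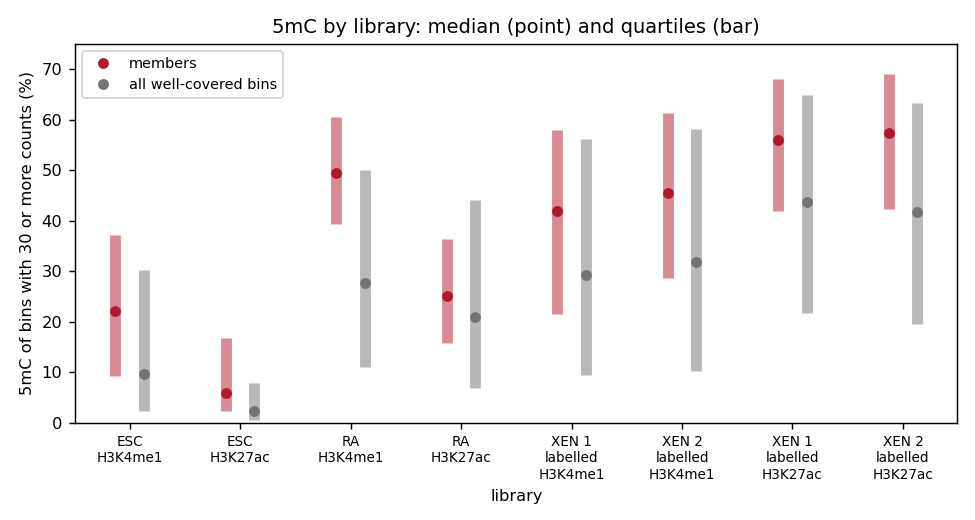
Percentage of 5mC in each of the 8 libraries for the members (red) and for all well-covered bins (grey), as the median (point) and quartiles (bar) of the bins with at least 30 counts in that library. The members have the higher median in every library. In differentiated cells (RA) it is 49.5% against 27.6% on H3K4me1 and 25.0% against 20.9% on H3K27ac. Bins at 20% or less on H3K4me1 in RA cannot be members.

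Occupancy, a bin's CpG counts per 1000000 CpG counts of its library (CPM), rose on both marks in most members, and more on H3K27ac. The median CPM in the members went from 0.935 to 1.95 on H3K4me1 and from 0.460 to 2.48 on H3K27ac. The log2 ratio of differentiated cells to ESCs, with a pseudocount of 1 count, had a median of 1.01 on H3K4me1 (quartiles 0.44 and 2.41) and 2.48 on H3K27ac (quartiles 1.08 and 3.64). The rule asks for 60 counts in differentiated cells, which favours bins that rose, so the same is given for all well-covered bins, whose medians were 0.93 and 1.78. In cells in bulk, more cells with a mark and more of the mark per cell cannot be told apart.

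Occupancy rose on both marks in 608 members, 84.6%, beside 81.2% of all well-covered bins, and on neither in 8, 1.11%, beside 0.916%. It rose on H3K4me1 alone in 53, 7.37%, beside 12.5%, and on H3K27ac alone in 50, 6.95%, beside 5.39%. H3K27ac rose more than H3K4me1 in 516 members, 71.8%, beside 63.4%. On H3K27ac the log2 ratio was over 1 in 76.4% of members, beside 64.4% of all well-covered bins, and under -1 in 1.39%, beside 1.37%. On H3K4me1 it was over 1 in 50.3% of members, beside 47.0%.

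**Figure D4:**
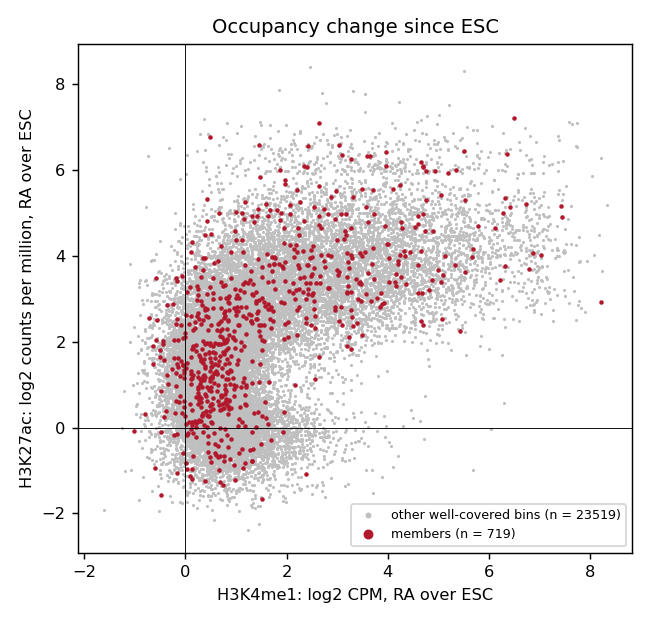
Change in occupancy from ESCs to differentiated cells for each well-covered bin, as the log2 ratio of CPM, for H3K4me1 (x axis) and H3K27ac (y axis), with the 719 members in red and the other bins in grey. The members spread over the same range as the other bins, 608 of them at the upper right, where both marks rose.

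By the ESC peak lists, fewer members than well-covered bins as a whole were marked by both before differentiation. In ESCs 427 members (59.4%) overlapped peaks of both marks, 158 (22.0%) a peak of H3K4me1 alone, 8 a peak of H3K27ac alone and 126 (17.5%) no peak of either. Among all well-covered bins these shares were 70.6%, 15.4%, 1.81% and 12.3%. The members marked by both in ESCs had low pooled 5mC there, 20.2% on H3K4me1 and 12.7% on H3K27ac. Those with no ESC peak had 58.9% and 63.4% in the few counts that fell on them, so members came from low as well as from high starting levels. The same split of starting levels, 14.5% and 6.70% against 58.5% and 64.8%, was found in all well-covered bins.

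The deeper members with the largest gain of H3K27ac were chr12:112576401-112576600, chr1:64165801-64166000 and chr7:106974401-106974600. Their H3K27ac CPM went from 0.951 to 5.23, from 0.951 to 4.74 and from 1.32 to 6.41, which is a log2 ratio of 2.42, 2.28 and 2.25. On H3K4me1 the first 2 were nearly level, with log2 ratios of 0.06 and 0.15, and the third gained 1.46. The chromosome 12 bin lost 28.9 points of 5mC on H3K27ac while H3K4me1 stayed at 33.6% in ESCs and 33.9% in differentiated cells. Among the 222 members with counts in both ESC libraries it is 1 of the 4 in which H3K27ac fell by more than 20 points.

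The 3 with the lowest H3K27ac change were chr11:100355201-100355400, chr6:39732001-39732200 and chr4:108033001-108033200, with log2 ratios of -0.59, -0.39 and 0.13. The first went from 8.71 to 5.79 CPM on H3K27ac while its 5mC on that mark went from 4.58% to 17.6%, and its 5mC on H3K4me1 went from 11.2% to 43.4%. The chromosome 6 bin went from 13.6% to 45.2% on H3K4me1 and from 18.6% to 24.6% on H3K27ac. The chromosome 4 bin went from 1.19% to 31.4% and from 2.15% to 9.90%. Bins that lost H3K27ac, or kept it level, thus also became members by a gain of 5mC on H3K4me1.

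Within their peaks the members lay slightly nearer the centre. The median distance from the bin to the centre of its peak was 888 bp for H3K27ac and 1086 bp for H3K4me1 in differentiated cells, beside 1074 and 1183 bp for all well-covered bins. Within 0.5 of the way from the centre of the peak to its edge lay 74.1% of members for H3K27ac and 69.4% for H3K4me1, beside 70.5% and 63.7%. The peaks themselves were alike, with median widths of 6438 and 7358 bp beside 7030 and 7160 bp. Their scores were at a median percentile of 95.4 and 96.2 of their lists, beside 96.4 and 96.1.

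In XEN cells, a separate differentiation not used by the rule, the members had intermediate to high 5mC. Pooled over all 719 members it was 39.4% (38.8 to 39.9) and 40.5% (39.9 to 41.0) in the libraries labelled H3K4me1, and 55.6% (55.2 to 56.1) and 56.1% (55.7 to 56.5) in those labelled H3K27ac. The spread between the replicates of a label was small beside the distance between the labels. Without the 5 bins of the chromosome 11 region these levels were 42.3%, 42.9%, 55.8% and 56.2%. The same libraries gave 35.1%, 35.9%, 47.5% and 47.6% over all well-covered bins, so the members were higher in every XEN library. Those bins include the 39.5% that were under 20% on H3K4me1 in differentiated cells, which the rule leaves out of the members.

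The level in XEN cells followed the level in differentiated cells. In the members under 20% on H3K27ac in differentiated cells the 4 libraries had 20.9%, 21.8%, 41.3% and 42.2%, in those from 20% to 40% they had 45.6%, 47.9%, 57.2% and 58.0%, and in those at 40% or over 67.0%, 66.1%, 72.2% and 72.2%. Without the chromosome 11 region the first class had 24.4%, 24.5%, 41.6% and 42.1% and the second 45.3%, 47.4%, 56.7% and 57.7%, and the third holds none of its bins. The distance between the labelled marks was widest in the class with the lowest H3K27ac 5mC in differentiated cells, with and without the region. These classes were cut on a value that the rule used, and were not made for all well-covered bins. Over the 269 members with at least 30 counts in each XEN library, the mean of the 4 libraries had a median of 47.2% (quartiles 31.6 and 62.8). It lay between the 2 marks of the differentiated cells in 156 members, above H3K4me1 in 94 and below H3K27ac in 19. The rule makes the span between those marks wider than 20 points in every member. The same counts were not made for all well-covered bins, so they cannot be read as a trait of the members. Across these 269 bins the Spearman correlation of the XEN mean was 0.749 with 5mC on H3K4me1 and 0.765 with 5mC on H3K27ac in differentiated cells. Whether traits of the bins such as base composition or coverage account for the correlation was not tested.

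The highest means in XEN cells among the deeper members were 80.8% in the chromosome 8 bin at 25549201, 78.0% at chr8:111283401-111283600 and 70.8% at chr8:110718801-110719000. In the first, the 4 libraries had 76.9%, 83.7%, 80.4% and 82.1%, with the labelled marks overlapping, where the differentiated cells had 64.5% on H3K4me1 and 35.6% on H3K27ac. The lowest means were 12.1% at chr19:43964801-43965000, 14.9% at chr19:43964201-43964400 and 22.0% in the chromosome 11 bin at 3093201. The first of these had 9.40%, 8.85%, 18.3% and 11.9% in XEN cells, where the differentiated cells had 28.8% on H3K4me1 and 6.67% on H3K27ac. The other 2 also lay between the marks of the differentiated cells, which had 32.3% and 11.4% at chr19:43964201-43964400 and 35.7% and 8.68% in the chromosome 11 bin.

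Whether the marks also differed in XEN cells was tested over the replicates. In the 269 members 5mC in the libraries labelled H3K4me1 minus those labelled H3K27ac had a median of -7.83 points (quartiles -14.4 and -2.16), and the libraries labelled H3K27ac were higher in 218 members, beside 6306 of the 8540 well-covered bins with these counts and 10297 of the 14549 bins tested. Over these well-covered bins the median was -4.01 points, and it was -3.41 over all bins tested. With the marks as the file names give them, the sign turns and the median is 7.83 points with H3K4me1 higher, the direction that the members have in differentiated cells. Both libraries labelled H3K27ac lay above both labelled H3K4me1 in 136 members, which is 50.6%, beside 35.4% of all bins tested, and both lay below in 9, which is 3.35%, beside 8.33%.

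By edgeR's quasi-likelihood test, adjusted by Benjamini-Hochberg across the 14549 bins, 16 of the 269 members were called with the libraries labelled H3K27ac higher, which is 5.95%, beside 1.27% of all bins tested. In the other direction 1 member was called, 0.372%, beside 0.0137% of all bins. With the marks as the file names give them these are 16 members with H3K4me1 higher and 1 with H3K27ac higher. Of the 16 called members, 4 were in the chromosome 11 region, and without its 5 bins 12 of 264 were called. The call needed all 4 libraries: without any 1 of them 2 members remained, both in the chromosome 11 region, and DESeq2 called 2. Between the libraries labelled with the same mark, the mean chi-square per bin was 1.34 and 1.39, where 1 is sampling noise alone.

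Among the members called in XEN cells, 5 were named by rule. In the chromosome 11 bin at 3093201 the libraries labelled H3K4me1 had 6.50% and 9.12% and those labelled H3K27ac 32.8% and 39.7% (edgeR adjusted p = 2.34e-22). The bin at 3093001 had 15.1% and 17.7% against 41.5% and 46.6% (edgeR adjusted p = 4.27e-18), and the bin at 3092801 had 13.4% and 15.4% against 31.2% and 34.2% (edgeR adjusted p = 0.0439). The first 2 are the members that remained called without any 1 library, and the bin at 3092801 was not called without any 1 library, with DESeq2 or at 20 counts (adjusted p from 0.0508 to 1.000). These 3 touching bins had their 2 lower values in the same pair of libraries and no overlap between the pairs.

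The bin chr10:110827201-110827400 had 46.7% and 42.3% in the libraries labelled H3K4me1 and 77.8% and 84.3% in those labelled H3K27ac, a difference of -36.5 points (edgeR adjusted p = 0.00168). The bin chr15:102155801-102156000 had 27.8% and 23.8% against 65.5% and 50.0%, a difference of -31.9 points (edgeR adjusted p = 0.0235). Neither was called without any 1 library or with DESeq2. In differentiated cells these 2 bins had 66.0% and 44.6% on H3K4me1 and 39.6% and 10.8% on H3K27ac. The one member called the other way, named after its values were seen, was chr10:120943801-120944000, with 88.1% and 81.1% in the libraries labelled H3K4me1 and 62.1% and 59.3% in those labelled H3K27ac (edgeR adjusted p = 0.0439), and it was not called without any 1 of the libraries.

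**Figure D5:**
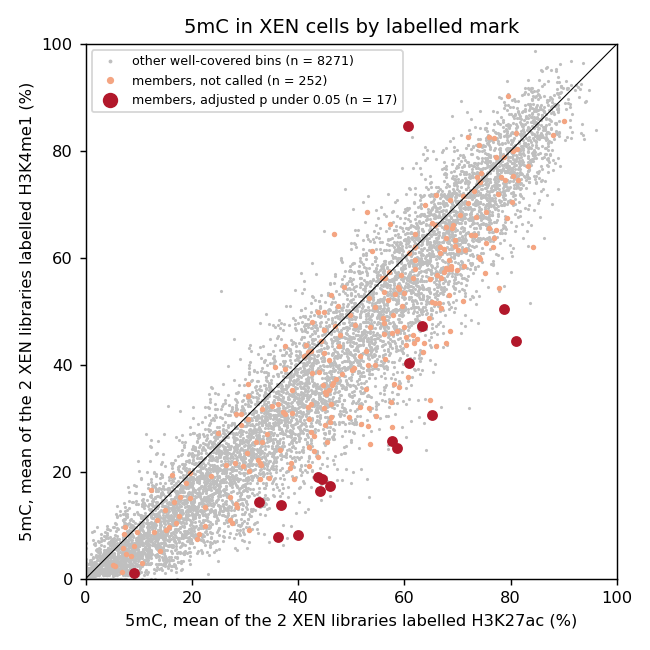
Percentage of 5mC in XEN cells for each well-covered bin with at least 30 counts in all 4 XEN libraries, as the mean of the 2 libraries labelled H3K27ac (x axis) and of the 2 labelled H3K4me1 (y axis), with the members called at an adjusted p under 0.05 in dark red, the other members in light red and the remaining bins in grey. Of the 269 members 218 lie below the line of equality, among them 16 of the 17 called, and so do 6306 of all 8540 bins plotted.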

How the data were processed

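H3K4me1 and H3K27ac ChIP-BS-seq libraries of ESCs, differentiated cells and XEN cells were analysed, grouped by the sample labels. Per the labels and methods, the authors aligned reads to mm9 (Bismark, Bowtie), left out reads whose CpGs disagreed, and deposited per 200-bp bin the counts of methylated and of unmethylated CpGs, not normalized. XEN files hold these columns in reverse order and list bins with at least 4 counts. Peaks came from HOMER, and the deposited score only ranked peaks. Members and lists were chosen with earlier results of these data known. Bins needed at least 30 counts in each library compared. Fisher's exact test compared the ESC libraries per bin. For XEN cells, edgeR 4.0.16 (quasi-likelihood, R 4.3.3) fitted methylated and unmethylated counts with terms for library, methylation and methylation by mark. Both were adjusted by Benjamini-Hochberg over all bins tested, called under 0.05, and tested on simulated data. The alternatives were other coverage limits, scalings, leaving out libraries, DESeq2 1.42.0 and a replicate block. Nothing in the labels says that the 2 XEN replicates of a mark were separate cultures, so p-values measure the spread between these libraries. Named bins, among members with at least 100 counts in both libraries of differentiated cells and 30 in both ESC libraries, were the 4 with the largest difference there, the 3 with the highest and the 3 with the lowest ESC difference, H3K27ac occupancy change and XEN 5mC (with 30 counts in each XEN library), and the 3 with the largest gain on H3K4me1. Of all members, the 3 longest runs and 2 bins on each side of the limit were added. Input, H3K36me and single-cell samples were not used here. No genes or sequences are given, since no mm9 annotation was used. Python 3.11.15, numpy 2.4.6, scipy 1.17.1 and pandas 2.3.3 were used.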

Additional observations from a re-analysis of the deposited data

Results flagged for a closer look

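In 5 of the 15 named members with at least 30 counts in both ESC libraries and all XEN libraries, the difference between the marks had 1 sign in ESCs and the opposite sign in every pair of XEN libraries, as labelled. H3K4me1 was higher in ESCs by 10.5 points at chr7:106974401-106974600, 11.9 at chr11:3093001-3093200, 9.66 at chr11:3093201-3093400, 4.93 at chr15:102155801-102156000 and 9.63 at chr19:43964201-43964400. In XEN cells the labelled difference was -17.9, -27.7, -28.5, -31.9 and -12.9 points in the same order. Of the ESC differences, Fisher's exact test called the one at chr11:3093001-3093200 (adjusted p = 0.00433) and none of the other 4 (adjusted p = 1.00, 0.254, 1.00 and 0.492 in the order given). The difference between the cell states was not tested, with 1 ESC library per mark. With the marks as the file names give them, these 5 bins had H3K4me1 higher in ESCs and in XEN cells. The counts of the XEN libraries correlated with the marks of the file names, as given above. Over all 14549 bins tested in XEN cells, the libraries labelled H3K27ac were higher in 10297.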

How the results depend on the processing

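The 719 members became 4429 with at least 30 counts, 115 with at least 100 and 64 with a limit of 30 points. H3K4me1 5mC since ESC changed by a median of 29.3 points at 60 counts, and H3K27ac by 9.13 at 20 counts and 9.51 with pooled counts. The log2 occupancy change was 0.65 for H3K4me1 with median-ratio scaling and 1.91 for H3K27ac with a pseudocount of 10. Neighbours differed by a median of 10.5 points at 60 counts when touching, and of 5.31 at 20 and 6.33 at 60 counts at 2 to 10 bins, from 5.69. In XEN cells, members called with the libraries labelled H3K27ac higher went from 16 to 2 with DESeq2, 47 with Fisher's exact test on summed counts, 2 to 2 when each library was left out, and 1 with the marks as file names give them. Those called the other way went from 1 to 0 at 60 counts, 0 with DESeq2, 0 to 0 without a library and 16 with the file names. The median difference was -10.5 points at 60 counts and reversed to 7.83 with the file names, and median XEN 5mC was 53.3% at 60 counts. With a replicate block 16 and 1 members were called, all 17 of them the same bins. The replicate numbers do not pair the libraries (correlation of deviations -0.00932 over 14549 bins). Leaving out the chromosome 11 region was chosen after seeing the data. With 1 library left out, the lone library of a mark was assumed to vary like the others. Few ESC H3K27ac counts fell on the members (median 15), and the ESC comparison is limited to 222 of 719 members. The causes were not tested.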
